A study of Homo sapiens with 6 samples.

Results

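Oxidative phosphorylation is the pathway by which mitochondria pass electrons from NADH and succinate to oxygen and use the resulting proton gradient to make ATP. The nuclear genes for its subunits were taken from RNA-seq of MDA-MB-231 cells by their symbols. The name pattern covered the NDUFA, NDUFB, NDUFC, NDUFS and NDUFV genes, the 4 SDH genes, the UQCR genes and CYC1, the COX4 to COX8 genes and the ATP5 genes. It matched 90 of the 23228 gene symbols in the count tables. Of these, 85 encode subunits of complexes I to V or their paralogs. The other 5 are ATP5S and ATP5SL, which encode proteins outside the complexes, the processed pseudogene ATP5EP2, and the readthrough symbols ATP5J2-PTCD1 and NDUFC2-KCTD14.

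MDA-MB-231 is an established human line of triple-negative breast cancer (TNBC). Control cells carried a lentiviral shRNA without a target, and PELP1-KD cells carried an shRNA against PELP1, a scaffold protein that acts as a coregulator of nuclear receptors and takes part in ribosome assembly. Both kinds of cells were selected with puromycin, kept as stable lines and grown in RPMI medium with 10% FBS. There were 3 replicates per group. A single shRNA was used against PELP1, and nothing in the labels says that the replicates came from separate selections or cultures, so p-values measure only the spread between these samples. In bulk RNA, fewer cells of a kind and less RNA per cell cannot be told apart. Reads counted on genes were 17304864, 23083404 and 18004958 in control replicates 1 to 3 and 19186990, 20972223 and 23132102 in PELP1-KD replicates 1 to 3.

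Complex I takes electrons from NADH through a core of flavin and iron-sulfur subunits that is surrounded by accessory subunits. Complex II is succinate dehydrogenase, an enzyme of the TCA cycle as well. Complex III hands electrons from ubiquinol to cytochrome c, complex IV hands them to oxygen, and complex V is the ATP synthase. Complexes I, III, IV and V also contain subunits encoded by mitochondrial DNA, which were not analysed here.

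PELP1 itself was measured at 57.2, 56.1 and 60.2 CPM (counts scaled to the library size with TMM factors) in the control replicates and at 28.6, 29.9 and 30.3 CPM in the PELP1-KD replicates. The groups did not overlap, and PELP1 fell with a log2 fold change (log2FC) of -0.97 (SE 0.055, edgeR quasi-likelihood test, adjusted p = 1.48e-11). A two-sided exact permutation test gave p = 0.1, the smallest value that 3 against 3 allows. Genes that mark this mesenchymal-like line were abundant, with VIM at 1909 to 2291 CPM and CD44 at 827 to 1244 CPM. The hormone receptor genes ESR1 and PGR and the epithelial cadherin gene CDH1 had between 0 and 4 counts in every replicate. The other 3 genes listed as low in this line were detected, with KRT8 at 255.6 to 290.7 CPM, ERBB2 at 108.9 to 127.8 CPM and EPCAM at 8.62 to 11.2 CPM. KRT8 fell (log2FC -0.13), and ERBB2 and EPCAM were not called. Of the leukocyte markers, PTPRC had 0 counts in all replicates, CD3E had 0 to 2 and CD14 had 8 to 16. Of the fibroblast markers, DCN had 0 counts in all replicates and LUM had 0 to 6. PDGFRB, the third fibroblast marker, was at 14.07, 16.99 and 16.16 CPM in control cells and at 45.04, 47.01 and 44.65 CPM in PELP1-KD cells, and it rose (log2FC 1.53). Of the 5 genes that are high in this line, 4 fell, with log2FC values of -0.13 to -0.55, and MSN was not called. The part of these markers in the changes below was not tested.

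Of the 85 subunit genes, 77 passed the filter on low counts and were tested. A gene was called at an adjusted p below 0.05 over all 12796 tested genes. In PELP1-KD cells 28 of the 77 subunit genes rose (36.4%), beside 22.7% of all tested genes, and 11 fell (14.3%), beside 24.2% of all tested genes. The remaining 38 were not called. In 31 subunit genes (40.3%) every PELP1-KD replicate was above every control replicate, which held for 27.0% of all tested genes. In 11 (14.3%) all PELP1-KD values were under all control values, which held for 28.0% of all tested genes. The changes were small. The median log2FC of the subunit genes was 0.068, that of all tested genes was 0.0014, 7 subunit genes were beyond 0.25 in either direction and 0 were beyond 0.5. A positive log2FC was found in 61 subunit genes and a negative one in 16. With library totals in place of TMM, 41 rose and 9 fell, so that rising genes were 82.0% of the called subunit genes in place of 71.8%, while over all tested genes that share went from 48.3% to 61.2%.

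**Figure D1:**
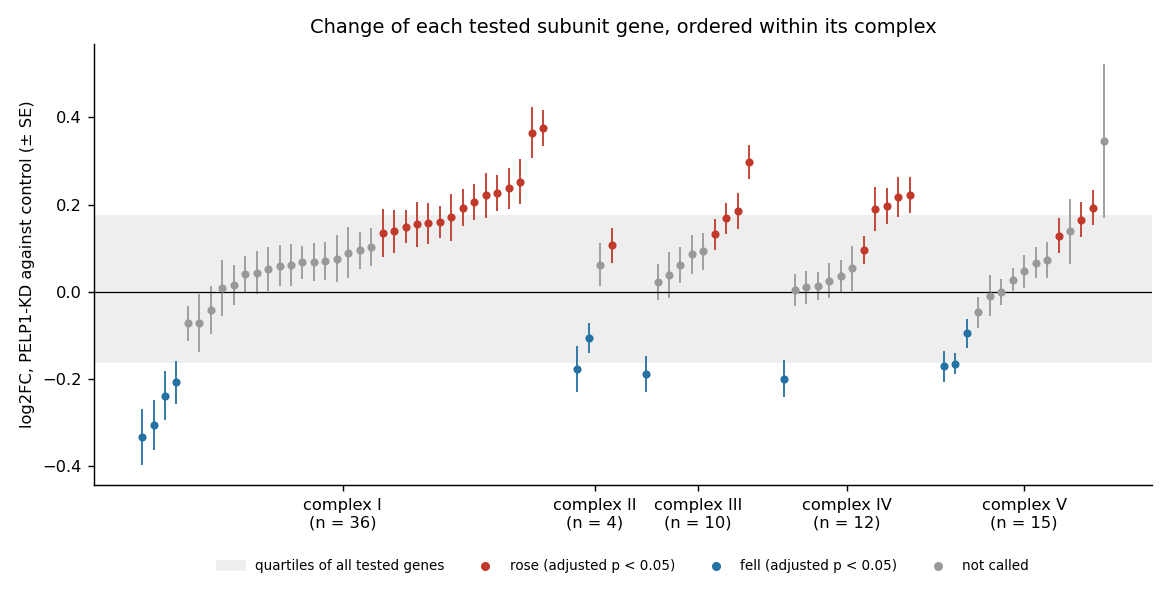
Each point is a tested subunit gene, placed by its log2FC between PELP1-KD and control cells with its SE (vertical axis) and ordered within its complex (horizontal axis), with red for genes that rose, blue for genes that fell and grey for genes not called. Complex I spans -0.33 (NDUFC2) to 0.38 (NDUFB8), and the grey band marks the range between the quartiles of all tested genes, from -0.16 to 0.17.

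**Figure D2:**
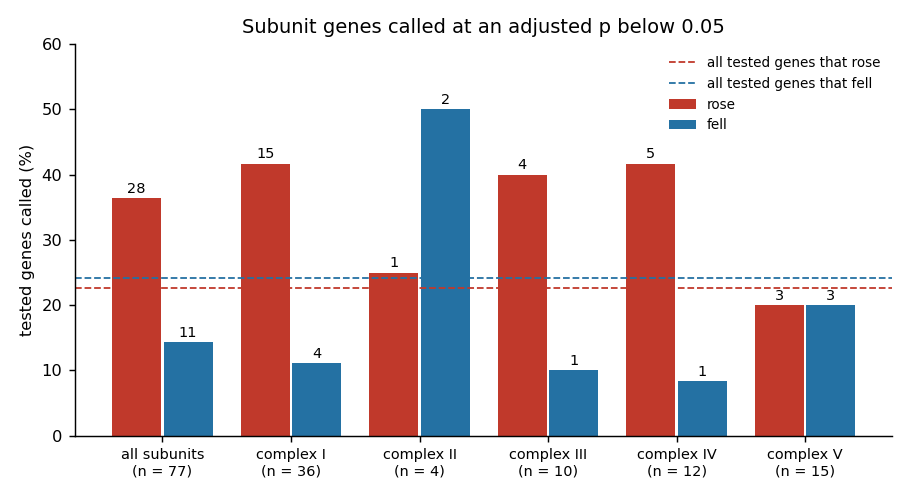
Bars give the percentage of tested subunit genes that rose (red) or fell (blue) with the number of genes above each bar, and dashed lines give the same percentages over all 12796 tested genes, 22.7% and 24.2%. With TMM scaling the share that rose is above its line for the 77 subunit genes together and for complexes I to IV, where complex II rests on 1 of 4 genes, and it is below the line in complex V.

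The subunit genes differ from other genes in length and level. Their annotated transcripts had a median length of 948 bases, beside 2746.5 bases for all tested genes with a length, and on the CPM scale, which is not corrected for length, 76 of the 77 were above the median control level of all tested genes (33.8 CPM). Their median GC content was 47.9%, close to the 48.1% of all tested genes, but it was 50.0% in the 28 genes that rose and 43.6% in the 11 that fell. Over all tested genes the direction of change went with GC content. When the genes were split into 3 bins of equal size, 11.3% rose and 39.9% fell in the bin of lowest GC content, and 34.7% rose and 11.7% fell in the bin of highest GC content. Among the subunit genes, 5 of 24 rose and 6 fell in the lowest bin, 13 of 32 rose and 5 fell in the middle bin, and 10 of 21 rose and 0 fell in the highest bin. Their median log2FC was 0.036, 0.070 and 0.095 in these bins, where that of all tested genes was -0.10, 0.0015 and 0.095. After regression of log2FC on length, GC content and level over all genes, the median of the subunit genes was 0.084.

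Complex I contributed 36 of the tested genes, with a median log2FC of 0.083. Of these, 15 rose (41.7%) and 4 fell (11.1%), beside 22.7% and 24.2% of all tested genes. Without control replicate 1 the median was 0.052, and leaving out each replicate in turn left 11 to 15 genes that rose. NDUFB8, an accessory subunit of the membrane arm (GRCh38, chr10:100523740-100530000), had the highest log2FC in the complex. It was at 105.5, 102.8 and 112.2 CPM in control cells and at 134.3, 140.8 and 140.3 CPM in PELP1-KD cells. The groups were well apart, and the log2FC was 0.38 (SE 0.042, adjusted p = 3.14e-07 by edgeR). NDUFC1, another accessory subunit (chr4:139266880-139302551), was at 42.3, 49.1 and 48.9 CPM in control cells and at 58.3, 61.4 and 61.4 CPM in PELP1-KD cells. Control replicate 1 was the lowest of the 6, the groups did not overlap, and the log2FC was 0.37 (SE 0.058, adjusted p = 2.74e-05 by edgeR). NDUFA12, an accessory subunit of the peripheral arm, rose from 95.3 to 101.8 CPM in control cells to 113.4 to 118.4 CPM in PELP1-KD cells (log2FC 0.23).

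The partner of NDUFC1, NDUFC2 (chr11:78068304-78080219), moved the other way. It was at 41.7, 36.5 and 39.3 CPM in control cells and at 30.7, 32.9 and 29.4 CPM in PELP1-KD cells, without overlap, and it fell with a log2FC of -0.33 (SE 0.064, adjusted p = 2.38e-04 by edgeR). NDUFV2, a core subunit that carries an iron-sulfur cluster next to the flavin (chr18:9102630-9134345), was at 55.82, 59.50 and 56.04 CPM in control cells and at 45.76, 42.94 and 49.96 CPM in PELP1-KD cells. It fell with a log2FC of -0.31 (SE 0.058, adjusted p = 1.98e-04 by edgeR). Of the 50-base windows in its transcript, 26.2% also occur in transcripts of other genes, so that reads from those stretches had more than a single place to align. NDUFA5, an accessory subunit of the peripheral arm, and NDUFA9, an accessory subunit next to the quinone site, fell with log2FC values of -0.24 and -0.21.

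By subfamily of symbols, 3 of the 11 NDUFB genes rose and 0 fell, and 5 of the 12 NDUFA genes rose and 2 fell. Of the 8 NDUFS genes 4 rose and 0 fell. Among those that rose, NDUFS4 and NDUFS6 had overlapping groups. NDUFS6 was not called by edgeR without control replicate 1 (adjusted p = 0.0922) or 2 (0.0897). It was also not called without PELP1-KD replicate 1 (0.0640) or 3 (0.145), and NDUFS4 lost its call in settings given below. Of the 2 NDUFC genes 1 rose and 1 fell, and of the 3 NDUFV genes 2 rose and 1 fell. All these counts stand beside 22.7% and 24.2% of all tested genes. Of the 7 core subunits, which hold the cofactors, 3 rose and 1 fell. NDUFS7 (log2FC 0.25) and NDUFV1 (0.15) were among those that rose. Among the 29 accessory subunits 12 rose and 3 fell. Per transcript length, NDUFS5 had the highest mean level in the complex (229 RPKM) and NDUFA9 the lowest (8.86 RPKM), with an annotated transcript of 8363 bases for NDUFA9 that lowers its value. Closest to the threshold were NDUFB11, called at an adjusted p of 0.0470 (log2FC 0.13), and NDUFB6, not called at 0.0622 (log2FC 0.10), both by edgeR. NDUFB11 was not called without any 1 of the replicates except control replicate 3, with adjusted p values of 0.0772 to 0.218, nor by DESeq2 (0.0745) nor under the stricter filter of 10 counts in each library (0.0555). NDUFB6 was called with library totals (adjusted p = 0.00791 by edgeR) and without PELP1-KD replicate 2 (0.0368).

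**Figure D3:**
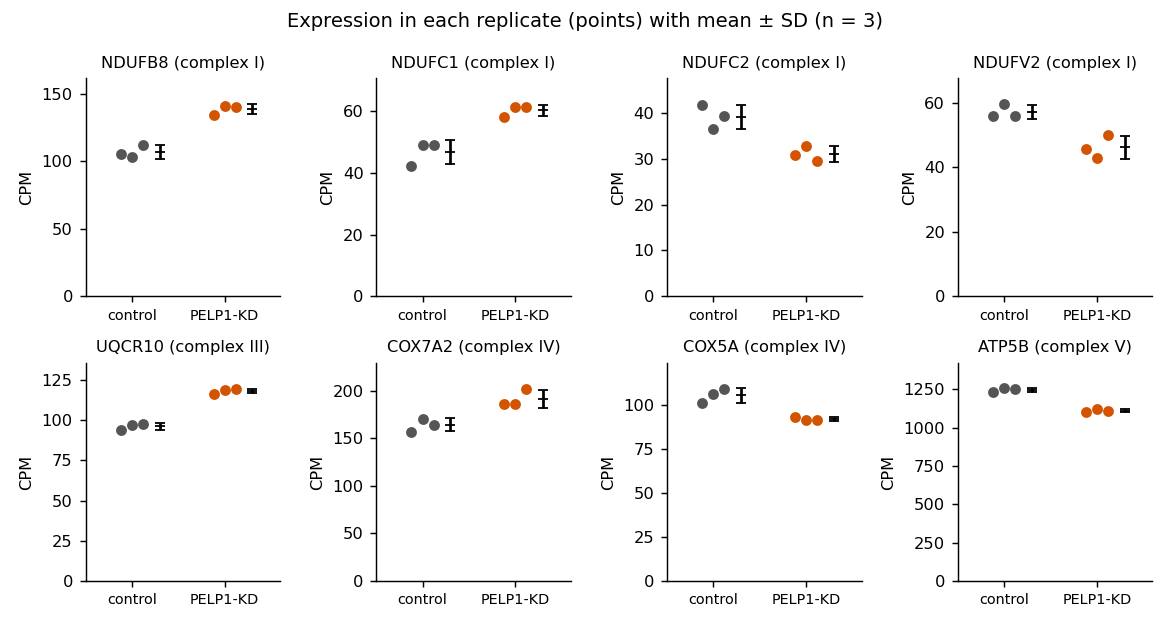
Points give the TMM-scaled CPM of 8 subunit genes in each of the 3 control (grey) and 3 PELP1-KD (orange) replicates, with the mean and SD beside them and each axis starting at 0. In all 8 panels the groups do not overlap: NDUFB8, NDUFC1, UQCR10 and COX7A2 are higher and NDUFC2, NDUFV2, COX5A and ATP5B lower in PELP1-KD cells.

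Complex II has 4 subunits, all encoded in the nucleus, and they did not move together. Their median log2FC was -0.022. It was 0.027 with library totals and 0.039 after regression on length, GC content and level. SDHA, the flavin subunit that oxidizes succinate, was at 232.7, 226.6 and 229.6 CPM in control cells and at 206.6, 219.5 and 213.6 CPM in PELP1-KD cells, and it fell (log2FC -0.11, adjusted p = 0.0142 by edgeR). SDHB, the iron-sulfur subunit, was at 119.3, 119.7 and 121.5 CPM in control cells and at 123.6, 129.5 and 134.8 CPM in PELP1-KD cells, and it rose (log2FC 0.11, adjusted p = 0.0363 by edgeR). The groups did not overlap in either catalytic subunit. SDHD, a membrane anchor, was at 115.1, 104.3 and 105.0 CPM in control cells and at 102.4, 87.9 and 96.3 CPM in PELP1-KD cells, and it fell (log2FC -0.18, adjusted p = 0.00857 by edgeR). SDHC, the other anchor, was at 55.1 to 59.3 CPM in control cells and at 58.5 to 61.6 CPM in PELP1-KD cells, with overlap (log2FC 0.06, adjusted p = 0.316 by edgeR).

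Of these 3 calls none held in every setting. SDHA was not called without PELP1-KD replicate 1 (adjusted p = 0.0982) or with library totals (0.169), and SDHD was not called without PELP1-KD replicate 2 (0.0681). SDHB was not called by DESeq2 (0.0550) nor without control replicate 2 (0.109), control replicate 3 (0.0606), PELP1-KD replicate 2 (0.0645) or PELP1-KD replicate 3 (0.212), all others by edgeR. The transcripts of SDHA and SDHD share 24.2% and 20.7% of their 50-base windows with other genes, and SDHB shares 0. Per transcript length SDHB was the highest (108 RPKM) and SDHC the lowest (4.33 RPKM), for which the annotated transcript has 13566 bases.

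In complex III, 4 of 10 tested genes rose and 1 fell, with a median log2FC of 0.089. With library totals 7 rose and the median was 0.139, beside 0.051 for all tested genes. UQCR10, a small accessory subunit (chr22:29767369-29770413), was at 94.0, 97.1 and 97.5 CPM in control cells and at 116.6, 119.0 and 119.3 CPM in PELP1-KD cells. The SD was 1.96 CPM in control cells and 1.52 CPM in PELP1-KD cells, and the log2FC was 0.30 (SE 0.040, adjusted p = 3.42e-06 by edgeR). CYC1, which encodes cytochrome c1, was at 227.2, 254.9 and 257.8 CPM in control cells and at 273.2, 290.5 and 278.0 CPM in PELP1-KD cells (log2FC 0.18, adjusted p = 9.80e-04 by edgeR). UQCRC1, a core protein on the matrix side, rose with a log2FC of 0.17. UQCRB, which borders a quinone site, was at 139.8, 133.6 and 137.4 CPM in control cells and fell to 122.6, 113.9 and 123.6 CPM in PELP1-KD cells (log2FC -0.19, adjusted p = 7.64e-04 by edgeR). UQCRFS1, the Rieske iron-sulfur protein, was not called (log2FC 0.02). Per transcript length UQCRQ was the highest of the complex (413 RPKM) and UQCRHL the lowest (23.7 RPKM). UQCRH and its intronless copy UQCRHL share sequence, 29.4% of the windows in the case of UQCRH, and neither was called (log2FC 0.09 and 0.04).

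Complex IV had 12 tested genes of 19, with a median log2FC of 0.044. Of the 12, 5 rose (41.7%) and 1 fell (8.33%), beside 22.7% and 24.2% of all tested genes. Without control replicate 1 the median was 0.0089, without control replicate 2 it was 0.071 and without control replicate 3 it was 0.076. With library totals it was 0.094, beside 0.051 for all tested genes. Regression on length, GC content and level gave a median of 0.117. COX7A2, a small subunit of the membrane part (chr6:75237675-75250323), was at 157.2, 170.9 and 164.6 CPM in control cells and at 186.6, 186.0 and 202.4 CPM in PELP1-KD cells (log2FC 0.22, SE 0.041, adjusted p = 1.59e-04 by edgeR). NDUFA4, which carries a complex I name but belongs to complex IV, was at 76.8, 81.8 and 82.8 CPM in control cells and at 96.0, 89.9 and 95.0 CPM in PELP1-KD cells (log2FC 0.22). COX7B rose from 86.4 to 90.1 CPM in control cells to 99.6 to 103.5 CPM in PELP1-KD cells (log2FC 0.20). All 3 were higher in every PELP1-KD replicate. COX5A, a subunit on the matrix side (chr15:74919791-74938168), was the exception, at 101.2, 106.2 and 109.4 CPM in control cells and at 93.2, 91.5 and 91.4 CPM in PELP1-KD cells (log2FC -0.20, SE 0.042, adjusted p = 6.08e-04 by edgeR).

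Complex IV is also the complex with tissue-specific paralogs. In each of the pairs COX4I1 and COX4I2, COX6A1 and COX6A2, COX6B1 and COX6B2, COX7B and COX7B2, COX8A and COX8C, and NDUFA4 and NDUFA4L2, only the first was tested. The second had 0 counts in every replicate for COX4I2, COX6A2 and COX8C, as did COX7A1, and stayed below 0.19 CPM for COX6B2, COX7B2 and NDUFA4L2, where 3 counts correspond to 0.13 to 0.173 CPM. Of the tested paralogs COX6A1 rose (log2FC 0.19) and shares 34.6% of its windows with 1 other gene, the processed pseudogene COX6A1P2. COX8A, the highest of the complex per transcript length (652 RPKM), rose with a log2FC of 0.10 (adjusted p = 0.0200 by edgeR) but was not called without PELP1-KD replicate 2 (adjusted p = 0.0854). COX4I1 (log2FC 0.01), COX6B1 (0.03) and COX7A2L (0.004) were not called. NDUFA4 was the lowest tested gene of the complex (40.9 RPKM).

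In complex V, 3 of 15 tested genes rose and 3 fell, with a median log2FC of 0.047. Without control replicate 1 the median was 0.022 and without PELP1-KD replicate 3 it was 0.025, while 5 genes rose without control replicate 2. With library totals 8 genes rose and 2 fell, where 29.8% of all tested genes rose and 18.9% fell. The median of the complex was then 0.096, beside 0.051 for all tested genes. Regression on length, GC content and level gave a median of 0.110. ATP5B, the catalytic beta subunit (now ATP5F1B, chr12:56638175-56646068), had the highest level of the complex per transcript length (641 RPKM). It was at 1230, 1256 and 1254 CPM in control cells and at 1104, 1123 and 1108 CPM in PELP1-KD cells. The SD was 14.5 CPM in control cells and 10.4 CPM in PELP1-KD cells, and ATP5B fell with a log2FC of -0.17 (SE 0.024, adjusted p = 1.12e-05 by edgeR). ATP5A1, the alpha subunit that alternates with beta in the same ring, was at 657.1, 649.4 and 664.0 CPM in control cells and at 667.5, 662.9 and 678.4 CPM in PELP1-KD cells and was not called (log2FC 0.03, adjusted p = 0.403 by edgeR). With library totals ATP5A1 was called as higher (log2FC 0.08, adjusted p = 0.0185 by edgeR). It lies outside the rule for named genes and is given for the comparison with ATP5B.

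The c ring, which turns with the passage of protons, is built from a single mature protein encoded by 3 genes. ATP5G2 was at 168.6, 167.9 and 169.7 CPM in control cells and fell to 150.9, 148.4 and 150.2 CPM in PELP1-KD cells (log2FC -0.17, adjusted p = 3.96e-04 by edgeR). ATP5G3, the most abundant of the 3 per transcript length (397 RPKM, beside 241 for ATP5G1 and 88.9 for ATP5G2), was at 327.1 to 339.0 CPM in control cells and at 331.5 to 338.1 CPM in PELP1-KD cells (log2FC 0.0003). ATP5G1 was not called either (log2FC 0.07).

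In the stalk and membrane part, ATP5H rose (log2FC 0.19) from 97.4 to 104.1 CPM in control cells to 115.5 to 116.4 CPM in PELP1-KD cells, and ATP5J rose (log2FC 0.17) from 108.6 to 116.5 CPM to 123.0 to 127.1 CPM. ATP5J2 rose (log2FC 0.13) and ATP5F1, the b subunit of the stalk, fell (log2FC -0.10, adjusted p = 0.0252 by edgeR). ATP5J2 was not called without control replicate 3 (adjusted p = 0.0986) or PELP1-KD replicate 1 (0.0536). ATP5F1 was not called with library totals (0.272) nor without control replicate 2 (0.0805), control replicate 3 (0.0751), PELP1-KD replicate 1 (0.106) or PELP1-KD replicate 2 (0.0563), all by edgeR.

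ATP5E, the epsilon subunit, was the lowest tested subunit gene, with 34, 75 and 49 counts in control cells and 71, 80 and 73 counts in PELP1-KD cells (0.844 RPKM). Its processed pseudogene ATP5EP2 had 1151, 1648 and 1342 counts in control cells and 1553, 1630 and 1569 counts in PELP1-KD cells. The coding sequence of ATP5E (gene at chr20:59025467-59032382, minus strand, GRCh38) and the matching stretch of ATP5EP2 (chr13:27945260-27945415, plus strand) are shown because reads of 50 bases had to tell them apart. Both have 156 bases, and the 6 bases that differ are in capitals (96.15% identity).
ATP5E: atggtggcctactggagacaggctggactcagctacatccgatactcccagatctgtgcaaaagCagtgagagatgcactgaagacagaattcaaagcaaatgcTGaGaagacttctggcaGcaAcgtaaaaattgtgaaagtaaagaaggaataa
ATP5EP2: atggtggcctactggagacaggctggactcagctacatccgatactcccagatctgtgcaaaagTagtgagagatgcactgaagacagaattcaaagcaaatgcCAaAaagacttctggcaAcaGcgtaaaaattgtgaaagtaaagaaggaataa
The readthrough symbol SLMO2-ATP5E, which overlaps ATP5E, had 0 counts in every replicate, as did NDUFC2-KCTD14 and ATP5J2-PTCD1. The log2FC of ATP5E was 0.35 (SE 0.18, adjusted p = 0.115 by edgeR), with overlapping groups, and that of ATP5EP2 was 0.04 (adjusted p = 0.602). Without control replicate 1 its log2FC was 0.19 (adjusted p = 0.411), and without control replicate 2 it was called (log2FC 0.54, adjusted p = 0.0363). Reads that could not be assigned between overlapping genes were counted on no gene. The 0 counts of the readthrough symbols are therefore no measure of their expression, and genes they overlap can be undercounted. How reads of ATP5E were divided between these rows and that class was not tested.

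Summed over its tested subunits, complex I was 7.03% higher in PELP1-KD cells, at 2941, 3063 and 3087 CPM in control cells and 3213, 3256 and 3260 CPM in PELP1-KD cells. Complex III was 7.67% higher and complex IV 4.77% higher, both without overlap of the groups. The sum of complex IV was 1802 CPM in control replicate 1, beside 1901 and 1897 CPM in control replicates 2 and 3. It was 1947 to 1962 CPM in PELP1-KD cells. The sums of complexes II and V were lower with TMM scaling, with changes of -3.38% and -2.30%, but with library totals complex II differed by 0.0025% and complex V was 1.10% higher, both with overlapping groups. Summed per transcript length under TMM, complex II changed by -2.87% and complex V was 0.93% higher, again with overlapping groups. ATP5B alone makes up about 1247 of the 3900 CPM of complex V in control cells, and the other 14 genes together were 1.70% higher. Control replicate 1, the library with the fewest reads, had the lowest sum over all 77 genes, 10484 CPM beside 10824 and 10864 CPM in control replicates 2 and 3 and 10948 to 11079 CPM in PELP1-KD cells. It was also low in single genes such as ATP5D, the delta subunit of complex V (63.2 CPM beside 84.8 and 81.3 CPM in the other controls). Without it 26 subunit genes rose, 11 fell and the median log2FC was 0.043.

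**Figure D4:**
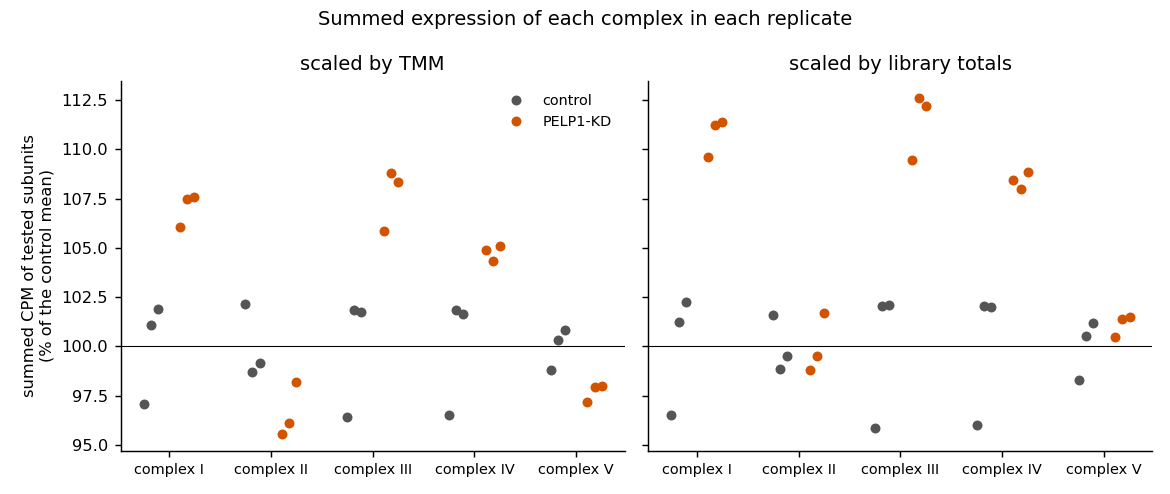
Points give the summed CPM of the tested subunit genes of each complex in each replicate as a percentage of the control mean (vertical axis, not starting at 0), with grey for control and orange for PELP1-KD cells, scaled by TMM on the left and by library totals on the right. Complexes I, III and IV are higher in every PELP1-KD replicate under both scalings, while complexes II and V are lower without overlap under TMM and overlap under library totals, as they do when summed per transcript length.

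Promoters of the subunit genes were read from RefSeq (GRCh38.p14), from 250 bases before to 50 bases after each start, and 63 of the 77 tested genes (81.8%) had an entry. Letters were searched on both strands. The YY1 motif AAGATGGCG was in the promoters of 9 of these 63 genes (14.3%), beside 4.84% of the 9995 tested genes with an entry and 2.14% of all 27305 genes in the table. The ETS motif CCGGAAG was in 20 (31.7%), beside 22.9% of the tested genes and 12.2% of the whole table, and the NRF1 motif was in 4 (6.35%), beside 2.69% and 1.52%. The Sp1 motif GGGCGG was in 40 (63.5%), below its share of 78.1% among the tested genes and above the 48.3% of the whole table. The E-box CACGTG was in 7 (11.1%), likewise between 12.5% of the tested genes and 8.77% of the whole table. ETS and YY1 motifs can overlap, since CCGGAAG ends with the letters that open AAGATGGCG. Of the 9 genes with the YY1 motif, 8 were among the 25 called higher, 1 was among the 8 called lower and 0 were among the 30 not called. For the ETS motif these numbers were 5, 1 and 14. A promoter entry was found for 9995 of all tested genes (78.1%). Of these, 19.83% of the 484 genes with the YY1 motif rose and 30.99% fell, beside 22.90% and 25.04% of those without it. Of the 2290 genes with the ETS motif, 21.31% rose and 22.93% fell, beside 23.18% and 26.05% of those without it. The 9 stretches are shown because they are the promoters that hold these letters, each with 10 bases on either side, on the strand of the gene and with the motif in capitals.
NDUFB8 (chr10:100529836-100529864, minus): gaagaaggtgAAGATGGCGgtggccaggg
NDUFS7 (chr19:1383914-1383942, plus): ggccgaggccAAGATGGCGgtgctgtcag
NDUFA6 (chr22:42090729-42090757, minus): atgctttggcAAGATGGCGgggagcggcg
NDUFA7 (chr19:8321343-8321371, minus): tcgcggacggAAGATGGCGtccgccaccc
UQCRC1 (chr3:48609605-48609633, minus): ctgcagctggAAGATGGCGgcgtccgtgg
ATP5J (chr21:25735093-25735121, minus): aggcgaagaaAAGATGGCGgaggctgtgc
NDUFS4 (chr5:53560650-53560678, plus): tgcctgcagcAAGATGGCGgcggtgtcaa
SDHB (chr1:17054004-17054032, minus): gtcaggagccAAGATGGCGgcggtggtcg
NDUFA9 (chr12:4649114-4649142, plus): attgtgggaaAAGATGGCGgctgccgcac
In all 9 the motif is on the strand of the gene, and in all but ATP5J it begins between 10 and 25 bases after the annotated start. Their log2FC values, in the order shown, were 0.38, 0.25, 0.24, 0.17, 0.17, 0.17, 0.15, 0.11 and -0.21. YY1 itself was at 122.8 to 127.4 CPM in control cells and at 113.8 to 120.5 CPM in PELP1-KD cells with a log2FC of -0.10 (adjusted p = 0.0469 by edgeR). That call was lost with RLE factors (0.0502), library totals (0.314), DESeq2 (0.0844) and no filter on low counts (0.0593), and without any 1 library except control replicate 3 (0.0524 to 0.154). Of the 9 genes, NDUFS4 was not called without control replicate 1 (0.0501), control replicate 2 (0.0789) or PELP1-KD replicate 1 (0.0930), and NDUFA7 was not called without control replicate 2 (0.0638), beside SDHB as given above. A match of letters is a description and not a binding site.

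Assembly factors build the complexes without being part of them. Of 51 tested, 14 rose and 6 fell, which is 27.5% and 11.8% beside 22.7% and 24.2% of all tested genes, with a median log2FC of 0.067. The largest falls were in complex III assembly. TTC19 was at 87.2, 82.7 and 76.1 CPM in control cells and at 57.7, 54.5 and 55.7 CPM in PELP1-KD cells (log2FC -0.55, adjusted p = 3.24e-08 by edgeR). LYRM7, which helps to insert the Rieske protein, was at 51.5, 43.3 and 42.4 CPM in control cells and at 31.9, 29.9 and 31.3 CPM in PELP1-KD cells (log2FC -0.56, adjusted p = 1.26e-06 by edgeR). In both genes the groups did not overlap, while UQCC2 (0.22) and BCS1L (0.17) of the same list rose. In complex I assembly 3 of 15 rose, among them COA1 (0.27) and NUBPL (0.34), and NDUFAF6 fell (log2FC -0.45). In complex IV assembly 5 of 22 rose (22.7%), the same share as over all tested genes. The lowest p-values were those of the copper chaperone SCO1 (0.21) and PET100 (0.39), and COX10 (-0.30) and COX11 (-0.18) fell. In complex II assembly SDHAF1 (0.33) and SDHAF4 (0.28) rose out of 4. In complex V assembly FMC1 (0.33) and ATPAF2 (0.23) rose and ATPAF1 (-0.17) fell out of 4. Several of these smaller changes lay close to the threshold, and their calls were lost in some settings while the direction stayed. SDHAF4 was not called by DESeq2 (adjusted p = 0.108) nor without any 1 library except control replicate 1 (0.0558 to 0.125 by edgeR), with log2FC values of 0.23 to 0.37 over the 6 removals. ATPAF2 was not called by DESeq2 (0.105) nor without control replicate 2 or 3 or PELP1-KD replicate 2 or 3 (0.0894 to 0.157), with log2FC values of 0.18 to 0.30 over the 6 removals. ATPAF1 was not called with library totals (0.0763) nor without control replicate 2 (0.0921) or PELP1-KD replicate 2 (0.0784), and BCS1L was not called without control replicate 3 (0.0602), with log2FC values of 0.14 to 0.21 over the 6 removals. Of 3 subunits that the name pattern leaves out, C14orf2, a small subunit of complex V, rose (log2FC 0.34, adjusted p = 1.28e-05 by edgeR) and the others were not called.

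Changes beyond those of any subunit were found among the genes that supply the chain. COQ7, a hydroxylase of coenzyme Q synthesis, was at 19.3, 20.4 and 20.7 CPM in control cells and at 13.5, 10.9 and 11.6 CPM in PELP1-KD cells (log2FC -0.75, SE 0.086, adjusted p = 4.55e-07 by edgeR). Of the 13 coenzyme Q genes, 23.1% rose, near the 22.7% of all tested genes, and 15.4% fell, beside 24.2%. The 3 that rose were COQ10B (0.18), COQ8B (0.27) and COQ6 (0.19), and PDSS1 (-0.26) fell beside COQ7. COQ6 was not called by DESeq2 (adjusted p = 0.0856) nor without any 1 library except control replicate 3 (0.0531 to 0.133 by edgeR). COQ10B was not called without control replicate 2 (adjusted p = 0.0683) or PELP1-KD replicate 1 (0.0674) or 3 (0.111), and COQ8B not by DESeq2 (0.0617) nor without control replicate 2 (0.119) or PELP1-KD replicate 2 (0.121) or 3 (0.0801). Among 7 tested genes that feed electrons into the chain or carry them, 4 rose (57.1%) and 2 fell (28.6%), beside 22.7% and 24.2% of all tested genes. ETFB (0.34) and ETFDH (0.43), which pass electrons from fatty acid oxidation to ubiquinone, rose. SQRDL, a sulfide oxidase, fell (log2FC -0.60), and CYCS, which encodes cytochrome c, fell from 290.8 to 322.3 CPM in control cells to 257.4 to 282.4 CPM in PELP1-KD cells (log2FC -0.14). CYCS was not called with library totals (adjusted p = 0.0587) or without PELP1-KD replicate 2 (0.0556). In the TCA cycle 3 of 14 rose (21.4%) and 4 fell (28.6%), shares near those of all tested genes. Of those that fell, IDH3A (-0.13) and OGDH (-0.10), were both not called with library totals (adjusted p = 0.118 and 0.287) or without PELP1-KD replicate 3 (0.0600 and 0.0506). IDH3A was also lost without control replicate 1 (0.0502) or PELP1-KD replicate 2 (0.0567), and OGDH by DESeq2 (0.0569) and without control replicate 2 (0.118) or PELP1-KD replicate 1 (0.212). IDH2, a mitochondrial isocitrate dehydrogenase, was at 18.09, 19.76 and 18.81 CPM in control cells and at 30.99, 30.84 and 31.14 CPM in PELP1-KD cells (log2FC 0.71, SE 0.065, adjusted p = 1.94e-08 by edgeR). MDH2 rose (0.24), while CS, the citrate synthase (-0.19), and DLD (-0.15) fell. Of 7 tested genes for the exchange of ADP, ATP and phosphate, a list that also holds the VDAC pores and the ATP synthase inhibitor ATPIF1, the ADP/ATP carrier SLC25A4 rose (0.16) and the phosphate carrier SLC25A3 fell (-0.07). The call of SLC25A3 was lost with library totals (adjusted p = 0.559), by DESeq2 (0.0827) and without control replicate 2 (0.172), control replicate 3 (0.128), PELP1-KD replicate 1 (0.149) or PELP1-KD replicate 3 (0.107).

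Among 16 regulators of mitochondrial biogenesis, 5 rose (31.2%) and 3 fell (18.8%), beside 22.7% and 24.2% of all tested genes. GABPA, the DNA-binding subunit of an ETS factor that acts on many of these genes, was at 30.3, 28.7 and 29.1 CPM in control cells and at 19.8, 18.8 and 19.3 CPM in PELP1-KD cells (log2FC -0.61, adjusted p = 1.86e-07 by edgeR). ESRRA, an orphan nuclear receptor, was at 47.7, 56.8 and 53.4 CPM in control cells and at 72.7, 77.5 and 74.4 CPM in PELP1-KD cells (log2FC 0.50, adjusted p = 3.65e-07 by edgeR). PPARGC1B, a coactivator of ESRRA, rose from 8.56 to 10.1 CPM in control cells to 11.9 to 14.3 CPM in PELP1-KD cells (log2FC 0.49), and PPRC1, a related coactivator, fell (-0.15), though not with library totals (adjusted p = 0.0613). The groups did not overlap in any of these 4 genes.

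**Figure D5:**
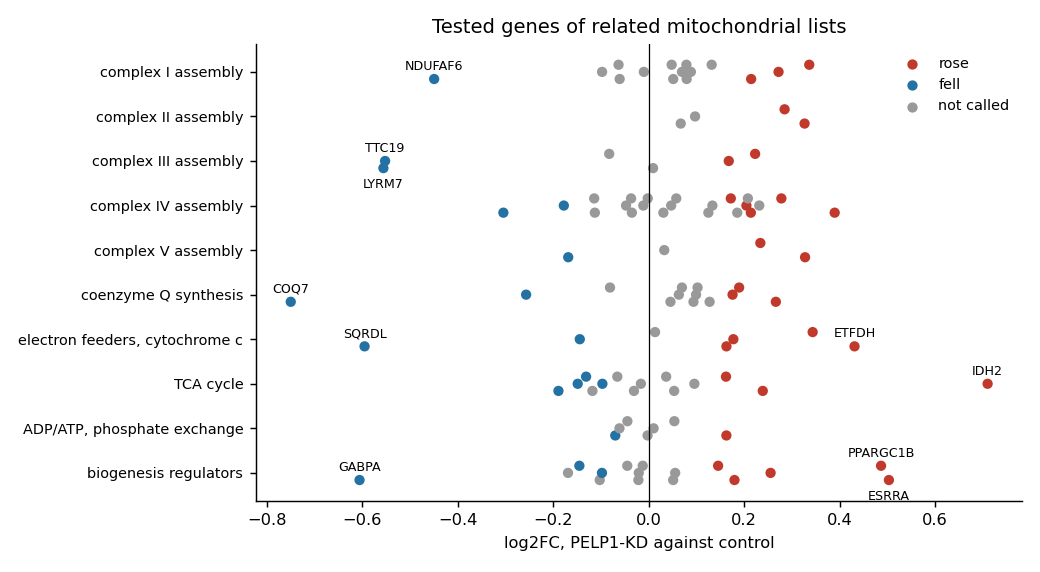
Each point is a tested gene of a related list (rows), placed by its log2FC between PELP1-KD and control cells (horizontal axis) with red for genes that rose, blue for genes that fell and grey for genes not called, and called genes beyond 0.4 in either direction are named. COQ7 (-0.75) and IDH2 (0.71) lie farthest out.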

How the data were processed

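The authors sequenced single reads of 50 bases from stranded poly(A) libraries and deposited raw, whole-number counts by gene symbol. The submitters' processing notes name bcl2fastq, TopHat2, SAMtools, HTSeq and hg19, and versions, annotation and strand setting are not given in the sources used here. Reads with more than a single alignment (32.5% to 32.9% of the summed counts with the closing rows) were counted on no gene. The 5 closing rows of each table were kept out of library sizes.

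From the counts, edgeR 4.0.16 in R 4.3.3 was run with TMM and filterByExpr (minimum 10 counts), with its quasi-likelihood test on all 6 samples and Benjamini-Hochberg adjustment over 12796 genes. The SE of a log2FC was derived from the F statistic of its test. The authors used DESeq2, which was an alternative here (version 1.42.0), as were voom in limma 3.58.1, RLE factors, library totals, other filters, a replicate block, leaving out each replicate, and regression on length, GC content and level. Lengths for RPKM, coordinates and shared 50-base windows came from GENCODE release 29 on GRCh38 (1 coding transcript per gene, the shortest with at least 90% of the longest coding sequence), not from hg19, and 92.4% of symbols had a length. The fits were tested on simulated counts. The floor of 3 counts covers counting error only, since reads carried no molecular identifiers.

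Members, related lists and motifs were chosen with earlier results of these data known. Named genes were PELP1, the SDH genes, the 3 lowest p-values per direction and complex among called genes, the highest and lowest RPKM per complex, paralogs, the genes next to the threshold, and the 2 lowest p-values per direction in each related list. Other genes named beside these were chosen after their values were seen.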

Additional observations from a re-analysis of the deposited data

Results flagged for a closer look

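Reads that fell on no annotated gene, which enter none of the comparisons, made up 8.06% of the reads in PELP1-KD cells and 7.75% ± 0.10 (SD, n = 3) in control cells, and the groups did not overlap (two-sided exact permutation p = 0.1, the smallest possible). Reads that could not be assigned between overlapping genes made up 0.684% in PELP1-KD cells and 0.660% ± 0.0040 (SD, n = 3) in control cells, again without overlap (two-sided exact permutation p = 0.1). The share of reads with more than a single alignment was 32.5% in PELP1-KD cells and 32.8% in control cells, lower in each PELP1-KD library than in every control library (two-sided exact permutation p = 0.1). All of these shares are of the summed counts of a library with its closing rows, where unaligned reads made up 0%. Whether a read with several alignments entered that sum more than once is not given in the sources used here. The part of these classes in the values of the subunit genes was not tested.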

How the results depend on the processing

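With library totals the median log2FC was 0.118 for all subunit genes, 0.132, 0.027, 0.139, 0.094 and 0.096 for complexes I to V, and 0.051 for all tested genes. In that setting 1 gene of complex II fell, 7 of complex III rose and 8 of complex V rose, and 11 genes of the related lists fell in place of 18. By DESeq2 0 genes of complex II rose, and 26 subunit genes rose and 11 fell. Regression on length, GC content and level gave medians of 0.039, 0.117 and 0.110 for complexes II, IV and V, and 0.038, 0.118 and 0.111 together with the replicate block. The reported median of complex II was -0.022, so its sign turned here and with library totals. Leaving out each replicate in turn gave 24 to 26 subunit genes that rose, 9 to 11 that fell and a median of 0.043 to 0.089, with medians of 0.052 to 0.113 in complex I, 0.065 to 0.105 in complex III and 0.0089 to 0.076 in complex IV. It gave 0 to 1 rising and 1 to 2 falling genes in complex II, and 2 to 5 rising genes and a median of 0.022 to 0.042 in complex V. Replicates with the same number did not deviate together (correlations 0.039, 0.065 and -0.078). With the replicate block 31 subunit genes rose and 11 fell, since NDUFB6, ATP5D and NDUFA13 were called as well (adjusted p = 0.0388, 0.0152 and 0.0374 by edgeR). It changed no other call of a subunit gene or of a called gene of the related lists. Of the summary values recomputed under the alternatives, 269 moved by less than the spread or by less than 1.5 times and 26 moved by more.

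Alternatives chosen after seeing the data left out the 8 genes with at least 10% shared windows (26 of 69 rose, 8 fell) or the 3 genes with a readthrough symbol (27 of 74 rose, 10 fell). The alternatives for the related lists and for subunit genes outside the naming rule were also chosen then.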
